A study of Mus musculus with 32 samples.

Results

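The transcripts described here encode the CB1 cannabinoid receptor, the enzymes that make its 2 main lipid ligands and the enzymes that break them down: *Cnr1*, *Dagla*, *Daglb*, *Mgll*, *Abhd6*, *Abhd12*, *Napepld* and *Faah*. They are 8 of the 23420 genes in the count tables, they were chosen by name and not by any measured value, and 8 of 8 passed the filter on low counts that left 15589 genes for testing. The RNA came from the striatum of naïve mice of about 50 days of age by the labels, and the study's methods give a range that reaches older ages. Striatal RNA of 8 B6.D2 congenic mice (Line 4a) was compared with that of 8 B6 mice. The congenic mice carried, on 1 chromosome of the pair, a segment of chromosome 11 from DBA/2J on a C57BL/6J background. The B6 mice were their C57BL/6J littermates and carried no such segment. Mice of both sexes were used in the study, but the sex and home cage of each mouse were not in the labels used here. Tissue punches from both hemispheres of a mouse were pooled, so each value is an average over the cells of the punch.

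Endocannabinoids are lipids that neurons make on demand and that act back on the terminals contacting them. In the striatum, 2-arachidonoylglycerol (2-AG) is produced in postsynaptic projection neurons by diacylglycerol lipases and acts on CB1, which is carried by projection neurons, some interneurons and the terminals of cortical afferents. Anandamide, the other main ligand, is released from a phospholipid precursor and is cleared by a separate hydrolase. The system is known for long-term depression at corticostriatal synapses and for its part in responses to drugs of abuse. The question put to these data is whether the congenic segment was accompanied by a change in the striatal transcripts of this system.

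The 8 genes lie outside the congenic chromosome. In GRCm38.p6 coordinates, *Cnr1* is at chr4:33923171-33948831 and *Faah* at chr4:115996668-116018837. The diacylglycerol lipase genes are at chr19:10245265-10304877 (*Dagla*) and chr5:143464484-143504442 (*Daglb*). The 3 genes for hydrolases of 2-AG are at chr6:88724412-88828360 (*Mgll*), chr14:8002888-8056773 (*Abhd6*) and chr2:150832493-150904779 (*Abhd12*). *Napepld* is at chr5:21662901-21701622. No annotated exon of the 8 overlapped an exon of another gene in the tables, although 90 bp of *Mgll* exon lie opposite *Gm16628*, an antisense gene that the tables do not list, and the counting ignored strand.

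Reads on genes ranged from 19032826 to 33748353 per library in the B6 group and from 24912413 to 32085311 in the congenic group. A pair of libraries stood apart: reads on no annotated feature made up 11.3% of B6 mouse 8 and 10.2% of congenic mouse 1, against 14.5% to 15.9% of the other 14 mice, and congenic mouse 1 also had the highest share of reads with several alignments (27.3%). The main results that these 2 mice move are given with and without them. Markers of striatal projection neurons were abundant in both groups, with a summed level over 10 genes (*Drd1a*, *Drd2*, *Adora2a*, *Penk* and others) of 5713 to 8421 counts per 1000000 reads on genes (CPM) in B6 mice and 6217 to 7330 CPM in congenic mice, and 0 of the 10 differed at an unadjusted p under 0.05 (edgeR's quasi-likelihood test). Markers of cortical glutamatergic neurons were present at a lower level, and their summed levels overlapped between the groups. Over 8 such genes that the study does not list as changed (*Emx1*, *Cux2*, *Rorb*, *Rasgrf2*, *Bhlhe22*, *Slc30a3*, *Kcnv1* and *Cplx3*), the summed level was 198.2 to 298.1 CPM in B6 mice and 171.9 to 251.3 CPM in congenic mice. In that list 8 of 8 log2 fold changes were negative, 4 were lower at an unadjusted p under 0.05 (5.14% of all genes) and 0 passed a false discovery rate (FDR) of 5%, and no marker was at 0 in all mice. In bulk tissue, fewer cells of a type and less RNA per cell cannot be told apart.

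Per kilobase of annotated exon, the 8 transcripts covered a range from *Abhd12* down to *Napepld*. Levels are given as reads per kilobase of exon and 1000000 reads on genes (RPKM), mean ± SD over all 16 mice. *Abhd12*, a membrane serine hydrolase that also acts on lysophosphatidylserine, was highest at 89.4 ± 8.79 RPKM, above 96.7% of the 14628 tested genes with a known length. *Cnr1* followed at 78.4 ± 10.9 RPKM, above 96.0% of those genes. The receptor was thus one of the more abundant messages of the tissue, at about the level of the most abundant of its hydrolases.

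The remaining enzymes were lower. *Mgll*, the monoacylglycerol lipase that hydrolyzes most 2-AG in brain, was at 40.3 ± 4.79 RPKM, and *Dagla*, the lipase that makes most 2-AG in adult brain, at 23.9 ± 2.15 RPKM. *Abhd6*, a postsynaptic 2-AG hydrolase, was at 15.5 ± 0.954 RPKM. Near the middle of all genes, above 48.0% and 45.5% of them, lay *Daglb*, the second diacylglycerol lipase, at 5.81 ± 0.244 RPKM and *Faah*, the fatty acid amide hydrolase that clears anandamide, at 5.23 ± 0.670 RPKM. *Napepld*, the phospholipase D that releases anandamide from its precursor, was lowest at 2.41 ± 0.225 RPKM, above 29.3% of the genes. Both enzymes of the anandamide branch were thus lower per kilobase than the 6 other genes, *Faah* only narrowly so beside *Daglb*.

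**Figure D1:**
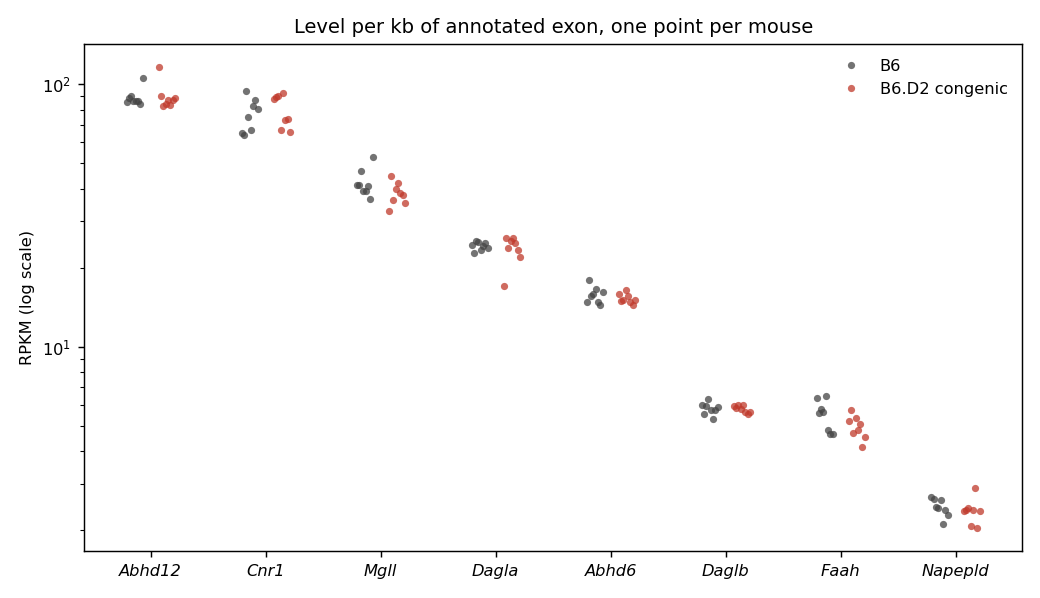
Level of each of the 8 genes in RPKM (log scale), with a point for each of the 8 B6 (grey) and 8 B6.D2 congenic (red) mice. The genes run from *Abhd12* (mean 89.4 RPKM) to *Napepld* (mean 2.41 RPKM), and the points of *Abhd12* and *Cnr1*, and of *Daglb* and *Faah*, overlap.

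Neighbours in this order were separated within mice to different degrees. *Cnr1* was 1.94-fold above *Mgll*, *Mgll* 1.69-fold above *Dagla*, *Dagla* 1.53-fold above *Abhd6*, *Abhd6* 2.67-fold above *Daglb* and *Faah* 2.16-fold above *Napepld*. These 5 steps had the same direction in 16 of 16 mice (exact sign-flip test, p = 3.05e-05, the smallest that 16 mice can give, and 4.27e-05 adjusted over 7 pairs). *Abhd12* exceeded *Cnr1* by 1.15-fold in 12 of 16 mice (adjusted exact p = 0.0032), and *Daglb* exceeded *Faah* by 1.12-fold in 13 of 16 (adjusted exact p = 0.0031). The tests cover the spread between mice and not the choice of gene length. With the length of the longest transcript in place of all annotated exons, the order was the same, and the 2 narrow steps widened to 1.46-fold and 1.40-fold, each in 16 of 16 mice.

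None of the 8 transcripts passed the test for genotype. At an FDR of 5% over all genes, edgeR's quasi-likelihood test called 0 of 8, against a background of 0.00641% (*Tnip1* alone, named after its value was seen). At an FDR of 20% it also called 0 of 8 (0.0192% of all genes), and at 5% DESeq2 called 0 of 8 (0.211% of the genes it gave an adjusted p) and edgeR's likelihood ratio test 0 of 8 (0.128%). At an unadjusted p under 0.05, 0 of 8 were lower in congenic mice and 0 of 8 higher, beside 5.14% and 4.86% of all genes. The CPM ranges of the groups overlapped for 8 of 8, and 0.0577% of all genes had ranges that did not. Of the 8 log2 fold changes (congenic minus B6), 6 were negative and their median was -0.04, beside a median of 0.01 and 45.1% negative over all genes tested. The intervals below say how large a change the data leave room for.

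The receptor *Cnr1* varied more between mice than between genotypes. In B6 mice its level was 414.1 CPM at the lowest, 501.3 at the median and 609.1 at the highest, and in congenic mice 424.4, 519.0 and 597.9 CPM. Within the congenic group, 4 mice lay at 424.4 to 473.8 CPM and the other 4 at 564.2 to 597.9 CPM, with none between, while the B6 values filled that gap. The log2 fold change was 0.05 (SE 0.10, 95% interval -0.15 to 0.25, FDR = 0.867 by edgeR, two-sided exact permutation p = 0.602), which is a change between -9.65% and 19.1%. By lane pair, the difference was 0.16 in the mice of lanes 5 and 6 and -0.06 in those of lanes 7 and 8.

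Of the lipases that synthesize 2-AG, *Dagla* gave 131.0, 139.7 and 145.2 CPM in B6 mice (lowest, median, highest) and 97.6, 139.4 and 149.7 CPM in congenic mice. The medians nearly coincided, and 2 congenic mice lay under every B6 mouse, congenic mouse 1 at 97.6 CPM and congenic mouse 8 at 125.8 CPM. Another 2 lay above every B6 mouse, congenic mouse 2 at 149.6 CPM and congenic mouse 5 at 149.7 CPM. The log2 fold change was -0.04 (SE 0.07, 95% interval -0.19 to 0.10, FDR = 0.844 by edgeR), and 0.01 (SE 0.04) without B6 mouse 8 and congenic mouse 1. *Daglb* gave 30.0, 33.0 and 35.9 CPM in B6 mice and 31.4, 33.2 and 34.0 CPM in congenic mice. It had the tightest interval of the 8, with a log2 fold change of -0.00 (SE 0.04, 95% interval -0.09 to 0.08, FDR = 0.981 by edgeR), so a change beyond -6.10% or 5.94% lies outside it.

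*Mgll* was among the hydrolases of 2-AG the one with the largest difference. Its levels were 177.1, 199.9 and 256.4 CPM in B6 mice and 160.1, 186.3 and 217.4 CPM in congenic mice, and 6 of 8 congenic mice lay under the B6 median. The means were 205.4 ± 25.02 and 187.0 ± 18.6 CPM (SD, n = 8 each). The log2 fold change of -0.14 (SE 0.07, 95% interval -0.29 to 0.02) did not pass the test (p = 0.0839 and FDR = 0.549 by edgeR, exact permutation p = 0.111). Its highest value was that of B6 mouse 8 and its lowest that of congenic mouse 1, and without these 2 mice the fold change was -0.06 (SE 0.06, p = 0.316 by edgeR). Within the lane pairs it was -0.13 and -0.14.

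The other hydrolases of 2-AG were close in both groups. *Abhd6* gave 31.4, 34.2 and 39.1 CPM in B6 mice and 31.4, 32.8 and 35.7 CPM in congenic mice, for a log2 fold change of -0.05 (SE 0.05, 95% interval -0.15 to 0.05, FDR = 0.741 by edgeR). *Abhd12* gave 237.0, 244.2 and 296.7 CPM in B6 mice and 232.3, 245.3 and 327.8 CPM in congenic mice, for a log2 fold change of 0.01 (SE 0.07, 95% interval -0.13 to 0.15, FDR = 0.962 by edgeR). In *Abhd12* the 14 mice outside the 2 libraries that stood apart lay within 232.3 to 254.3 CPM, and both of those libraries lay above them. Without them the fold change was -0.02 (SE 0.03).

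In the anandamide branch, *Napepld* was measured with the fewest reads (181 to 360 per mouse) and *Faah* had the largest fold change of the 8. *Napepld* gave 8.36, 9.66 and 10.6 CPM in B6 mice and 8.09, 9.43 and 11.5 CPM in congenic mice, with a log2 fold change of -0.05 (SE 0.07, 95% interval -0.20 to 0.11, FDR = 0.853 by edgeR). *Faah* gave 36.4, 44.0 and 50.95 CPM in B6 mice and 32.6, 38.8 and 44.8 CPM in congenic mice. Of the congenic mice 7 of 8 lay under the B6 median, but 3 B6 mice, at 36.4 to 37.7 CPM, also lay under the congenic median. The means of *Faah* were 43.1 ± 5.76 and 38.8 ± 3.89 CPM (SD, n = 8 each), and the log2 fold change of -0.15 (SE 0.08, 95% interval -0.32 to 0.02) missed the threshold (p = 0.0734 and FDR = 0.536 by edgeR, exact permutation p = 0.109). The fold change was -0.15 in each lane pair, and -0.20 (SE 0.08, p = 0.0196 and FDR = 0.320 by edgeR) without B6 mouse 8 and congenic mouse 1.

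**Figure D2:**
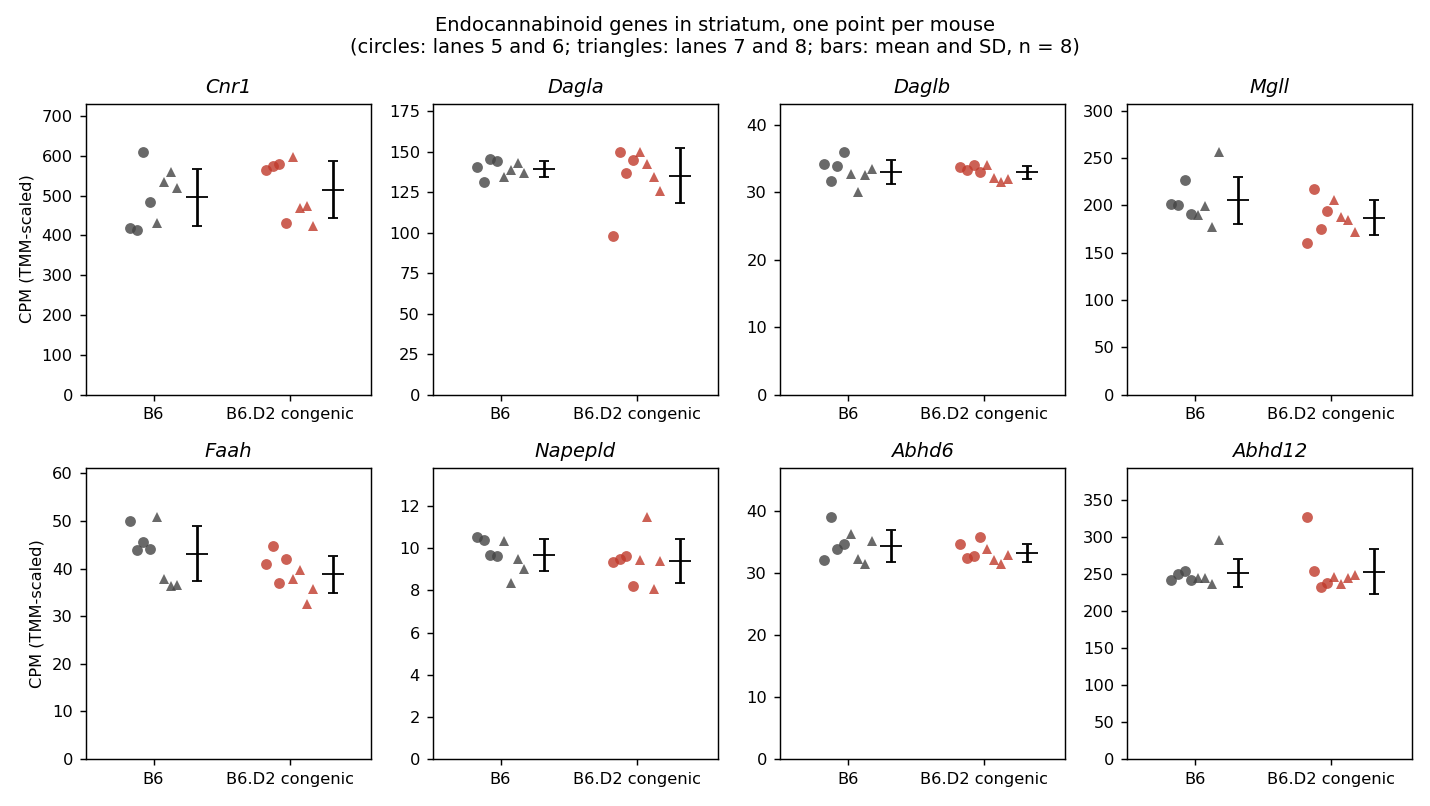
Level of each of the 8 genes in TMM-scaled CPM in every mouse, by genotype, with a panel and scale for each gene starting at 0, circles for lanes 5 and 6, triangles for lanes 7 and 8, and bars for the mean and SD of 8 mice. The groups overlap in every panel, and single mice stand out in *Dagla* (congenic mouse 1 at 97.6 CPM) and *Abhd12* (B6 mouse 8 at 296.7 CPM and congenic mouse 1 at 327.8 CPM).

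Lane pair is the one batch that the series' description gives, with mice 1 to 4 of each genotype on lanes 5 and 6 and mice 5 to 8 on lanes 7 and 8. A test of the interaction between genotype and lane pair called 0 of the 8 genes at an unadjusted p under 0.05 (1.88% of all genes), and the lowest of the 8 was *Napepld* at p = 0.230 by edgeR. Other choices of samples left the 8 genes short of an FDR of 5%. With each lane file counted as a sample, which treats lanes of 1 library as separate mice, 0 of 8 passed an FDR of 5% (7.20% of all genes) and 2 of 8, *Mgll* and *Faah*, an unadjusted p under 0.05 (24.3%). With mouse number as a replicate block the counts were 0 (0.00%) and 1 (8.83%), and without B6 mouse 8 and congenic mouse 1 they were 0 (0.0449%) and 1 (12.8%), and *Faah* was that gene in both.

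Ratios within a library do not depend on the scaling between libraries. They compare the transcripts of the pathway's steps, and enzyme activity and lipid levels were not measured. Per kilobase, *Dagla* made up 80.6 ± 0.703% of the diacylglycerol lipase transcript in B6 mice and 80.0 ± 2.50% in congenic mice (exact permutation p = 0.680, n = 8 each). Among the 3 hydrolases of 2-AG, *Abhd12* held 60.6 ± 0.893% in B6 and 62.4 ± 3.47% in congenic mice, *Mgll* 28.6 ± 1.33% and 26.9 ± 3.13%, and *Abhd6* 10.8 ± 0.912% and 10.7 ± 0.661% (exact permutation p = 0.136, 0.165 and 0.797). Congenic mouse 1 had the lowest *Dagla* share (74.1%) and the highest *Abhd12* share (70.4%) of the 16 mice.

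Across 5 log2 ratios of read counts, none passed the test. For transcripts of synthesis and breakdown of 2-AG, the log2 ratio of *Dagla* to *Mgll* differed by 0.08 between congenic and B6 mice (exact permutation p = 0.324). For those of anandamide, *Napepld* to *Faah*, it differed by 0.10 (exact permutation p = 0.225). The differences were -0.05 for *Dagla* to *Daglb*, -0.09 for *Mgll* to *Abhd6* and -0.14 for *Mgll* to *Abhd12*. Without B6 mouse 8 and congenic mouse 1 these 3 were 0.011, -0.0048 and -0.042, and those of *Dagla* to *Mgll* and *Napepld* to *Faah* were 0.061 and 0.13. Adjusted over the 5 ratios, the lowest p was 0.407.

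No pair of the 8 transcripts was shown to rise and fall together from mouse to mouse. After the mean of each genotype was removed, 3 of 28 pairs had an unadjusted permutation p under 0.05 for Pearson's r, and 0 of 28 had one after adjustment. *Dagla* and *Mgll*, the main enzymes of synthesis and breakdown of 2-AG, gave r = 0.53 and rho = 0.58 (permutation p = 0.0155 and 0.0216, adjusted 0.434 and 0.604), with 0.76 and 0.27 within the 2 lane pairs and 0.35 without the 2 mice farthest from the median. *Faah* and *Napepld* gave r = 0.50 and rho = 0.51 (permutation p = 0.0470 and 0.0571, adjusted 0.439 and 0.672), with -0.01 and 0.72 within lane pairs and 0.41 without the 2 farthest mice. The relation of *Dagla* and *Abhd12*, r = -0.74 and rho = -0.37 (permutation p = 0.0431 and 0.192, adjusted 0.439 and 0.672), did not hold without the 2 farthest mice, congenic mice 1 and 5 (r = -0.13), or without B6 mouse 8 and congenic mouse 1 (r = -0.018), and r was -0.88 and -0.20 within lane pairs. *Cnr1* and *Dagla* gave r = 0.09 and rho = 0.43 (permutation p = 0.827 and 0.103, adjusted 0.960 and 0.672), with -0.03 without the 2 farthest mice, -0.04 and 0.84 within lane pairs and 0.60 without B6 mouse 8 and congenic mouse 1.

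The spread between mice of a genotype differed from gene to gene. The coefficient of variation was 14.5% in B6 and 13.9% in congenic mice for *Cnr1*, and 13.4% and 10.03% for *Faah*. For *Daglb* it was 5.37% and 3.00%, beside a counting error of 3.22% at its median depth, and for *Napepld* 7.68% and 11.1%, beside a counting error of 6.03%.

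**Figure D3:**
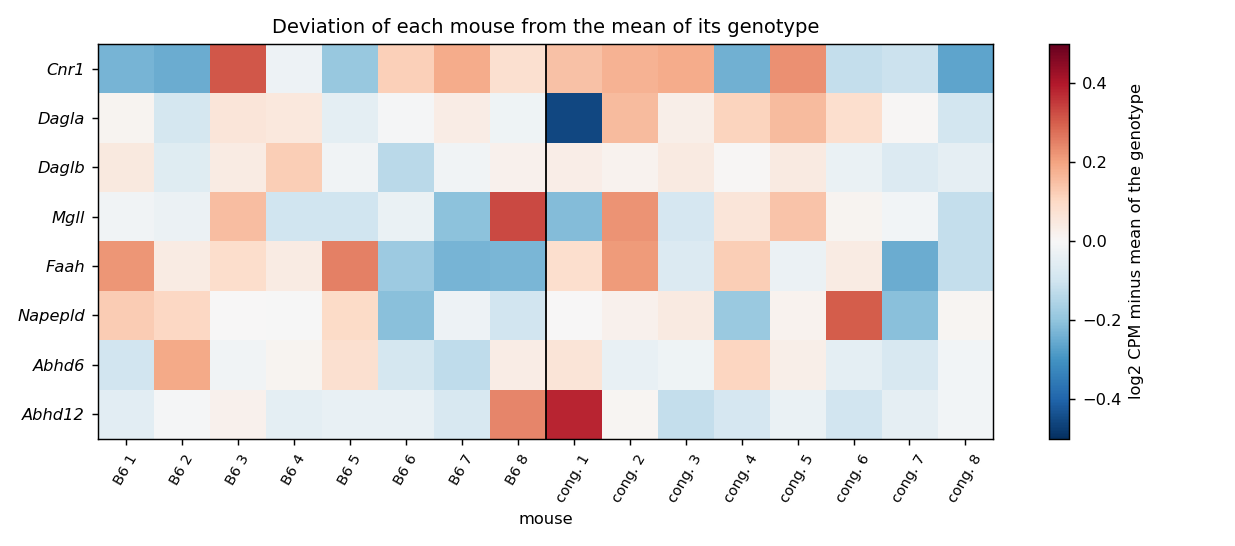
Deviation of each mouse from the mean of its genotype in log2 CPM (color scale, red above and blue below), with the 8 genes as rows and the 16 mice as columns, B6 left of the line and congenic (cong.) right. *Dagla* and *Abhd12* deviate most in congenic mouse 1, in opposite directions, while *Cnr1* varies across many mice.

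The level of *Faah* went with that of cortical marker genes. Log2 CPM of each marker was standardized over the mice and averaged over a list to give a score per mouse, and 32 relations of the 8 genes to 4 scores were computed, a family chosen after the data had been seen. *Faah* rose with the score of the 8 cortical markers (r = 0.78, rho = 0.78, permutation p = 0.00078 and 0.00097, adjusted 0.025 and 0.031), and r was 0.70 without the 2 mice farthest from the median, 0.55 and 0.86 within the lane pairs, and 0.78 without B6 mouse 8 and congenic mouse 1. The relation of *Mgll* to this score did not pass (r = 0.39, rho = 0.37, permutation p = 0.156 and 0.166, adjusted 0.535 and 0.591). Its r was -0.10 without the 2 farthest mice, 0.77 and 0.14 within the lane pairs, and 0.75 without B6 mouse 8 and congenic mouse 1. With the cortical score as a term in the edgeR fit, the genotype difference of *Faah* was 0.05 (SE 0.07, p = 0.502) in place of -0.15. That of *Mgll* in the same edgeR fit was -0.05 (SE 0.09, p = 0.582) in place of -0.14. In this fit 0 of the 8 passed an FDR of 5% (0.00% of all genes) and 0 an unadjusted p under 0.05 (2.45% of all genes). The score itself ran lower in congenic mice (-1.13 to 0.86) than in B6 mice (-0.54 to 1.19). Score and genotype therefore cannot be fully told apart in this fit.

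The relation of *Cnr1* to the markers of striatal projection neurons did not pass adjustment (r = 0.59, rho = 0.55, permutation p = 0.0182 and 0.0294, adjusted 0.291 and 0.235). Its r was 0.69 without the 2 farthest mice, 0.71 and 0.51 within lane pairs and 0.74 without B6 mouse 8 and congenic mouse 1. With the cortical score *Cnr1* showed an r of -0.04. Of the 32 relations, that of *Faah* with the cortical score was the one that passed adjustment.

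**Figure D4:**
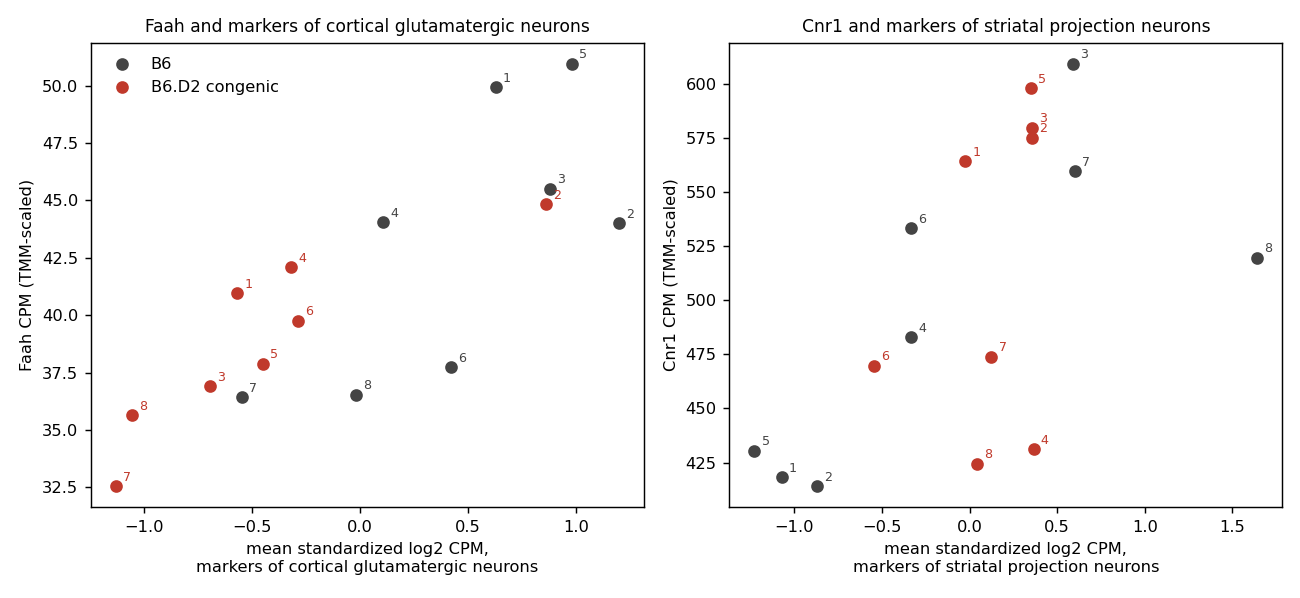
CPM of *Faah* against the score of 8 cortical glutamatergic markers (left) and CPM of *Cnr1* against the score of 10 striatal projection neuron markers (right), with a point for each mouse numbered within its genotype (B6 grey, congenic red), on axes that do not start at 0. The left points rise along the score in both genotypes (r = 0.78 after genotype means were removed) and the right points scatter more widely (r = 0.59).

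The genes whose level followed each of the 8 most closely over the 16 mice, of 10314 genes with a mean of at least 10 CPM and with genotype means removed, differed from gene to gene. They are a description, and the points share their libraries. For *Cnr1* they were *Coch* (r = 0.90), *Gpr155* (0.86) and *Hs6st1* (0.84), with r of 0.86 or more without B6 mouse 8 and congenic mouse 1. For *Faah* they were *Pamr1* (0.87), *Arhgef25* (0.86) and *Slc30a3* (0.83), and the last of these, the zinc transporter of glutamatergic synaptic vesicles, is itself in the cortical list.

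Those of *Dagla* included *Grin1*, the obligatory subunit of NMDA receptors (r = 0.96), beside *Lphn1* (0.97) and *Pou6f1* (0.95). Without B6 mouse 8 and congenic mouse 1 these were 0.89, 0.87 and 0.84. Those of *Mgll* were *Mras* (0.93), *Prkce* (0.91) and *Zbtb22* (0.90), and those of *Abhd12* were *Pithd1* (0.99), *Pcbp1* (0.98) and *Cryz* (0.98), where r for *Cryz* was 0.72 without those 2 mice. *Daglb* had *Tmem209* (0.79), *Zdhhc16* (0.77) and *Thtpa* (0.73). For *Abhd6* they were *Cdkn1a* (0.79), *Nr2f6* (0.79) and *Ifngr2* (0.78), and for *Napepld*, *Gabra3* (0.67), *St6galnac4* (0.67) and *Hunk* (0.66).

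Beyond these 8, a list of 24 genes placed around endocannabinoid signaling (other receptors and targets, alternative enzymes, phospholipases C and binding proteins) held 21 that could be tested. *Gpr18*, *Gpr119* and *Trpv1* were near the limit of detection, with 21, 23 and 27 reads over all 16 mice. In the other 21, 0 passed an FDR of 5% by edgeR's quasi-likelihood test (0.00641% of all genes) and 0 by DESeq2 (0.211%), 10 fold changes were positive and 11 negative, and the median was -0.02. Lower in congenic mice at an unadjusted p under 0.05 were 2 of 21, beside 5.14% of all genes, and higher were 0 of 21, beside 4.86%. Without B6 mouse 8 and congenic mouse 1 the count was 9 of 21 in either direction, beside 12.8% of all genes, and 0 passed an FDR of 5% (0.0449%).

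Those 2 were *Ptgs2*, which encodes cyclooxygenase-2, an enzyme that can oxygenate 2-AG and anandamide, and *Cnrip1*, whose product binds the tail of the CB1 receptor. *Ptgs2* gave 3.09, 3.84 and 7.36 CPM in B6 mice (lowest, median, highest) and 2.72, 3.22 and 3.95 CPM in congenic mice, and 7 of 8 congenic mice lay under the median of the B6 mice. The log2 fold change of *Ptgs2* was -0.48 (SE 0.16, 95% interval -0.81 to -0.15, p = 0.0069 and FDR = 0.391 by edgeR, exact permutation p = 0.0123). It rests on 69 to 245 reads per mouse, and was -0.33 (p = 0.0171 by edgeR) without B6 mouse 2, which had the highest value. *Cnrip1* gave 29.0, 32.1 and 34.8 CPM in B6 mice and 24.2, 27.2 and 36.8 CPM in congenic mice, again with 7 of 8 under the median of the B6 mice. For this gene the log2 fold change was -0.18 (SE 0.07, 95% interval -0.33 to -0.03, p = 0.0206 and FDR = 0.441 by edgeR, exact permutation p = 0.0230), and its highest congenic value lay above every B6 mouse.

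Neither passed the adjustment over all genes. With the cortical score in the fit, the difference of *Ptgs2* was -0.10 (SE 0.17, p = 0.557 by edgeR) and that of *Cnrip1* -0.10 (SE 0.09, p = 0.297 by edgeR). Here too, score and genotype cannot be fully told apart. Without B6 mouse 8 and congenic mouse 1 they were -0.57 (FDR = 0.234 by edgeR) and -0.23 (FDR = 0.225 by edgeR).

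**Figure D5:**
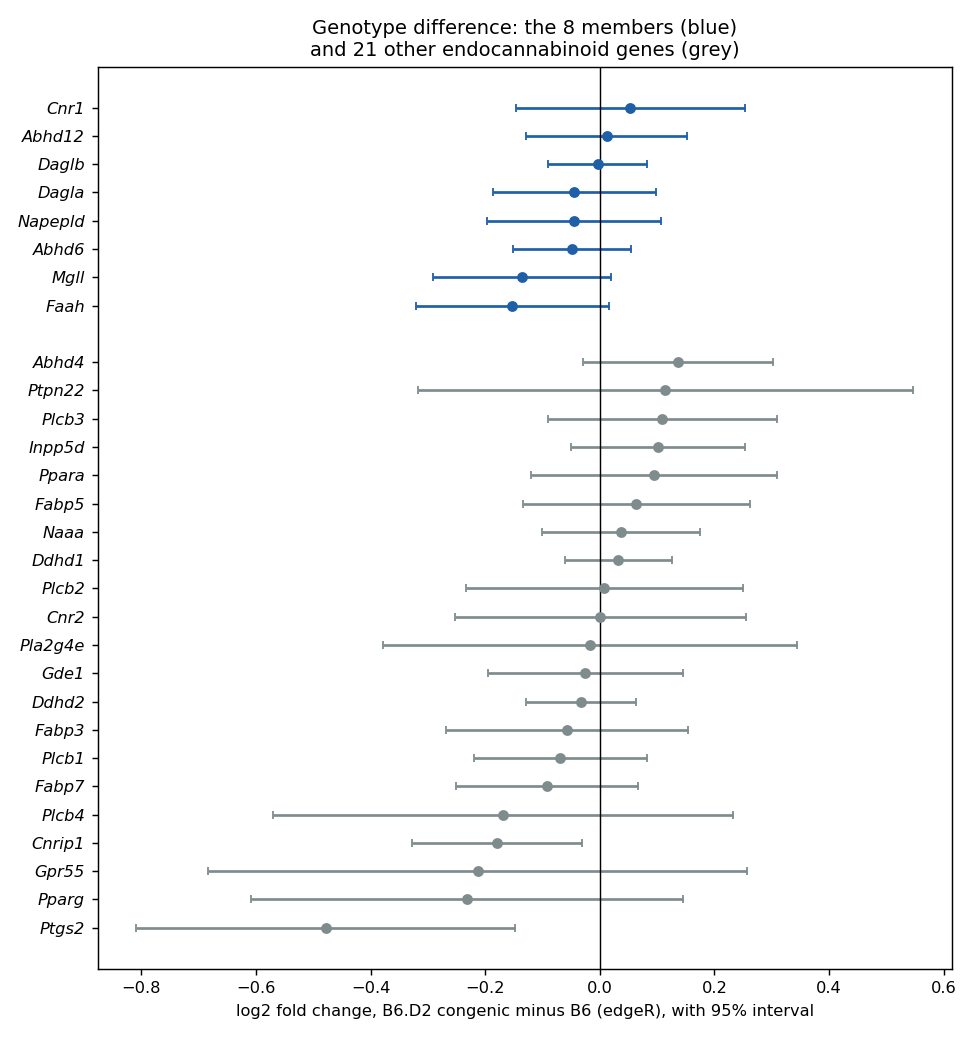
Log2 fold change (congenic minus B6) with its 95% interval from edgeR for the 8 genes (blue) and for the 21 tested genes of the wider list (grey). The intervals of 8 of 8 include 0, with *Faah* (-0.15) and *Mgll* (-0.14) lowest, and in the wider list those of *Ptgs2* and *Cnrip1* do not.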

How the data were processed

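The authors aligned 50 bp single-end reads of striatal poly(A) RNA to mm10 with TopHat and counted reads per gene with HTSeq 0.6.1p1 in union mode without strand, leaving out reads with several alignments. The deposited values are raw counts for each mouse and lane (31 lane files of 16 mice). The authors' own tables of fold changes and p-values were not used. Here lane files were summed per mouse after a chi-square comparison of the lanes of 15 mice (0.997 to 1.051 per degree of freedom), and B6 mouse 7 had 1 lane file. Rows that name no gene held 36.5% of the reads and were left out. Genes were filtered with filterByExpr, scaled by TMM and compared in edgeR 4.0.16 under R 4.3.3 (quasi-likelihood test, Benjamini-Hochberg adjustment across every tested gene). A prior count of 0.5 was added for log2 CPM. No block was used, because expression deviations of mice with the same number correlated at only -0.12 to 0.36 (3 of 8 over 0.1). Such correlations cannot show whether these mice shared a cage or litter, which the labels do not give. Home cage, a term in the authors' model, was not in the labels. Single values were compared by exact permutation over 12870 splits, and correlations used 100000 resamples within genotype (scipy 1.17.1, Python 3.11). Positions come from RefSeq on GRCm38.p6, and exon lengths from GENCODE vM1. Steps were tested on simulated data. The genes and lists were chosen with earlier results of these data known. Named are the 8 genes, genes of the wider list at an unadjusted p under 0.05 and, for each of the 8, the 3 genes of highest correlation. P-values rest on the spread between mice, and counting error at the median depth was between 0.839% (*Cnr1*) and 6.03% (*Napepld*).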

Additional observations from a re-analysis of the deposited data

Results flagged for a closer look

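Values far from the rest of their group, by Dixon's criterion, were found in 4 of the CPM series and 2 of the ratios, in 30 group tests in all. Chance alone gives about 1 in 20 such tests. Congenic mouse 1 accounts for 4 of the 6: its *Dagla* CPM was the lowest of its group at 97.6, its *Abhd12* CPM the highest at 327.8, its *Dagla* to *Daglb* log2 ratio the lowest at 1.53 and its *Mgll* to *Abhd12* log2 ratio the lowest at -1.03. B6 mouse 8 had the highest *Abhd12* CPM of its group at 296.7. In both mice the share of reads on no annotated feature was also low (10.2% in congenic mouse 1 and 11.3% in B6 mouse 8), and the part of this in these values was not tested. Congenic mouse 6 had the highest *Napepld* CPM at 11.5, from 347 reads, and its share of reads on no annotated feature (15.4%) was like that of the other mice.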

How the results depend on the processing

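Across 30 settings no FDR of the 8 genes fell under 5%, and the lowest were 0.0758 for *Mgll* and 0.0769 for *Faah*, with lane files counted as samples. Fold changes of 7 of the 8 genes turned sign under some setting, all but that of *Mgll*. In lanes 7 and 8 alone, *Cnr1* was -0.059, *Daglb* 0.0052, *Napepld* 0.045 and *Abhd12* -0.072. With the cortical score in the fit, *Faah* was 0.051, *Napepld* 0.031 and *Abhd6* 0.0056. *Daglb* was 0.025 with 1 lane file per mouse and 0.0083 with upper-quartile factors. Without B6 mouse 8 and congenic mouse 1, a setting chosen after seeing the data, *Dagla* was 0.0058, *Abhd12* -0.015 and the *Dagla* to *Daglb* ratio 0.011. Leaving out a mouse at a time gave -0.069 to 0.011 for *Dagla*, -0.022 to 0.015 for *Daglb*, -0.051 to 0.047 for *Abhd12* and -0.073 to 0.017 for the *Dagla* to *Daglb* ratio, the upper ends of *Dagla* and of the ratio and the lower end of *Abhd12* being those without congenic mouse 1. It also gave 0.017 (without congenic mouse 5) to 0.10 (without B6 mouse 3) for *Cnr1*, -0.095 (without congenic mouse 6) to -0.017 (without congenic mouse 7) for *Napepld*, and up to -0.018 (without B6 mouse 2) for *Abhd6* and -0.086 (without B6 mouse 8) for *Mgll*. *Faah* stayed between -0.19 and -0.12. Among the ratios, *Mgll* to *Abhd12* was -0.054 and *Mgll* to *Abhd6* -0.046 without congenic mouse 1, *Mgll* to *Abhd6* -0.045 and *Dagla* to *Mgll* 0.027 without B6 mouse 8, *Dagla* to *Daglb* -0.034 without B6 mouse 6, and *Napepld* to *Faah* 0.062 without congenic mouse 6. Within lanes 5 and 6 the correlation of *Faah* and *Napepld* was -0.0086. The causes were not tested.

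The count of the 8 genes at an unadjusted p under 0.05 was 0 in the main edgeR fit, beside 1559 of all 15589 genes. It was 2 with lane files as samples (*Mgll* and *Faah*), beside 24.3% of all genes. Without B6 mouse 8 and congenic mouse 1 it was 1 (*Faah*), beside 12.8%, and with lane pair as a covariate also 1 (*Faah*). Leaving out a mouse at a time gave 0 to 2, beside 1107 to 2087 of all genes. It reached 2 without B6 mouse 7 or congenic mouse 2 and 1 without B6 mouse 6 or 8. The share of all genes is not given here for lane pair as a covariate or for each omission. Those counts therefore show nothing particular to the 8 genes. In the wider list, 2 genes (*Ptgs2* and *Cnrip1*) passed an FDR of 5% with lane files as samples, which counts each library more than once. The wider list's count at an unadjusted p under 0.05 was 2 in the main edgeR fit and 1 with 1 lane file per mouse. It was 1 with the cortical score (2.45% of all genes) and 4 with lane files as samples (24.3%). In lanes 5 and 6 it was 0, beside 500 of all genes, and in lanes 7 and 8 it was 5. Without B6 mouse 8 and congenic mouse 1 it was 9, beside 12.8% of all genes. With a mouse left out it was 2 to 6, beside 1107 to 2087 of all genes, 6 being without congenic mouse 1 and 4 without congenic mouse 2. The share of all genes is not given here for lanes 7 and 8 or for each omission. Those counts therefore show nothing particular to the list. Over all genes, the count at an FDR of 5% was 1 in the main edgeR fit, 31 with DESeq2 1.42.0 and 20 with the likelihood ratio test. It was 1068 with lane files as samples, 2 with lane pair as a covariate, 0 with the cortical score and 0 in each lane pair alone. This all-gene count was 7 without B6 mouse 8 and congenic mouse 1. It was 1 to 4 with a mouse left out (4 without congenic mouse 1, 3 without congenic mouse 6). At an unadjusted p under 0.05 it was 1559, 382 with the cortical score, 3605 with lane files as samples and 500 in lanes 5 and 6. With mouse number as a replicate block, 0 genes passed an FDR of 5% and 1 of the 8 (*Faah*) an unadjusted p under 0.05. Whether the numbers pair the mice is not known. Of the B6 mice, 2 of 8 correlated best with the congenic mouse of their own number, which cannot decide it. Depth limits *Napepld* and the genes of under 30 reads.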
